A study of Mus musculus with 20 samples.

Results

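Serum amyloid A1, A2 and A3 (Saa1, Saa2, Saa3), lipocalin 2 (Lcn2), haptoglobin (Hp), ceruloplasmin (Cp) and the orosomucoids Orm1 and Orm2 are acute-phase proteins, which the liver releases into blood in inflammation and some of which other tissues, the lung among them, also make. They were taken by gene symbol from a table of 24054 genes measured by RNA sequencing in whole mouse lung, together with albumin (Alb), a hepatocyte product that marks liver transcripts. All 9 genes were in the table, and 7 of them had enough counts to enter the test across genes, which 16193 genes did. Saa1 and Saa2 did not, and are given by their counts. Orm2 and Alb had few counts in some groups and entered through the groups where they were high, so the counts of genes called below describe these genes and carry no weight as support.

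The acute-phase response is switched on by interleukin 6, interleukin 1 and related cytokines, which act in the responding cell through the transcription factors STAT3, C/EBP and NF-kappa B. Its products differ in what they bind: serum amyloid A proteins ride on high-density lipoprotein and act on formyl peptide and toll-like receptors, lipocalin 2 withholds iron from bacteria by binding their siderophores, haptoglobin binds free haemoglobin, ceruloplasmin oxidises iron and carries copper, and orosomucoids carry drugs and small lipids. Albumin is made in quantity by hepatocytes and is lowered, not raised, in an acute-phase liver.

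The 20 libraries came from lungs of female C57Bl6 mice in 4 groups of 5 biological replicates. WT_saline and WT_HDM were wild type and received saline or house dust mite (HDM), an inhaled allergen extract that was put into the nose every day for 14 days. KO_saline and KO_HDM carried the genotype label ALOX15 KO, a loss of the lipoxygenase gene Alox15, and received saline or HDM in the same way. The labels give no age and no construction of the knockout. Expected counts per library totalled between 15601878 and 21715842 under saline and 12573113 and 20662632 after HDM in wild type, and between 21120878 and 23305673 under saline and 17840138 and 21082770 after HDM in the mice labelled knockout. Levels below are CPM, the usual scaling of counts to library size, with sizes adjusted by TMM factors for composition, and they compare one gene between libraries, not one gene with another.

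Alox15 RNA went against the genotype label. In wild type it lay at 0.825 to 11.1 CPM under saline and 7.92 to 29.8 CPM after HDM, and with the knockout label at 38.4 to 44.7 CPM under saline and 35.0 to 45.5 CPM after HDM, so those mice and libraries are called the libraries labelled knockout, and every genotype direction below rests on that label. Of the markers of lung tissue used as a check of the organ, none was at 0 counts in any group. Transcripts of fat and of liver set some libraries apart. The adipocyte gene Adipoq was at 50 CPM or more in 5 libraries, namely WT_saline 2 and 4, WT_HDM 2 and 4 and KO_HDM 5, and results were recomputed without these. Hepatocyte transcripts were found in all 5 KO_HDM libraries, so no comparison that uses KO_HDM can be made without them.

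The 250 bases upstream of the annotated start site are shown for the serum amyloid A genes, Lcn2 and Orm2, because these are the members with the steepest HDM response or the fewest counts, and so that the near-copies Saa1 and Saa2 can be seen beside Saa3. The sequences are RefSeq's, from mouse build GRCm38.p6, written 5′ to 3′ on the strand of the gene, and they lie at chr7:46742981-46743230 (minus strand, Saa1), chr7:46751583-46751832 (plus, Saa2), chr7:46715677-46715926 (minus, Saa3), chr2:32387740-32387989 (minus, Lcn2) and chr4:63362199-63362448 (plus, Orm2). All of these windows are promoter-proximal and end at the base before the start site listed for the gene. Capitals mark matches to the C/EBP motif TTNNGNAAT on either strand or to the TATA motif TATAAA.
Saa1: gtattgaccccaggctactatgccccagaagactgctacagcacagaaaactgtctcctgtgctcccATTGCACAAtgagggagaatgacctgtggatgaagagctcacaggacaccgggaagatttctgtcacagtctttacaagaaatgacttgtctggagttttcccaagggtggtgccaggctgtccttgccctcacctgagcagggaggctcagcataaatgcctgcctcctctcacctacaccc
Saa2: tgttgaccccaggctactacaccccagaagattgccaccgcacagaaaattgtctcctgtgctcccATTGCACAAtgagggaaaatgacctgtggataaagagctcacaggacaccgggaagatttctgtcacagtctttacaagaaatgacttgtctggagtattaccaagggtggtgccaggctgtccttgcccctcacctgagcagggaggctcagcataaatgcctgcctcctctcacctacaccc
Saa3: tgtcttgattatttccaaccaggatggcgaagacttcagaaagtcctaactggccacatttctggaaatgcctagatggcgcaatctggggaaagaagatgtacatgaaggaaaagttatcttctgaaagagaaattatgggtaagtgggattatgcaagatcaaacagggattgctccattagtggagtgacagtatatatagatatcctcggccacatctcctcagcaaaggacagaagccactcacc
Lcn2: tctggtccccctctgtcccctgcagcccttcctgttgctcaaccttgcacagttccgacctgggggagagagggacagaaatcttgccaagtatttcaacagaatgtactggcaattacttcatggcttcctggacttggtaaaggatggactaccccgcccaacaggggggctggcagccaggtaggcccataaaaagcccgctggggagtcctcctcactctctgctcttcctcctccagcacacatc
Orm2: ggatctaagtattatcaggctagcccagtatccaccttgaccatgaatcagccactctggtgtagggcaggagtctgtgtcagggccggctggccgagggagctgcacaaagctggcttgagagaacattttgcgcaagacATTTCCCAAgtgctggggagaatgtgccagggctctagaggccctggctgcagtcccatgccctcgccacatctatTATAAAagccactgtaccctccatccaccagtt

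The Saa1 and Saa2 windows were identical at 197 of 249 aligned positions (79.1%), whereas Saa1 and Saa3 shared 74 of 243 (30.5%) and Saa2 and Saa3 80 of 244 (32.8%), each at its best ungapped offset. The C/EBP letters were found in the Saa1 window, first base at -183 from the start site, in the Saa2 window at -184 and in the Orm2 window at -109. The Alb window also held them, at -75. In 32851 windows of the same length from all listed genes, 10.2% held this motif. The STAT motif TTCNNNGAA (7.02% of all windows) and the 10-base NF-kappa B motif (GGG and TTTCC with any pair of bases between; 1.41%) were in none of the 5 windows shown, and TATAAA (12.4%) was in the Orm2 window at -33. All motifs were searched on both strands, a match is a run of letters and not a bound site, and a missing match says only that these letters are not in that window. RefSeq's table gave no window for Hp or Orm1.

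After HDM, Saa3, Lcn2, Cp and Orm2 rose in both genotypes while Hp fell in both. In wild type 5 of the 6 acute-phase members tested passed an adjusted p of 0.05, 4 of them higher and 1 lower, where 30.1% of all genes tested were called (13.6% higher and 16.5% lower). In the libraries labelled knockout all 6 were called, 5 higher and 1 lower, where 51.9% of all genes were called (26.2% higher, 25.7% lower). The median log2 difference of the 6 was 1.88 in wild type and 2.72 in the libraries labelled knockout, against -0.02 and 0.02 over all genes tested. These are levels in bulk tissue, so more cells of a type and more RNA per cell cannot be told apart.

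**Figure D1:**
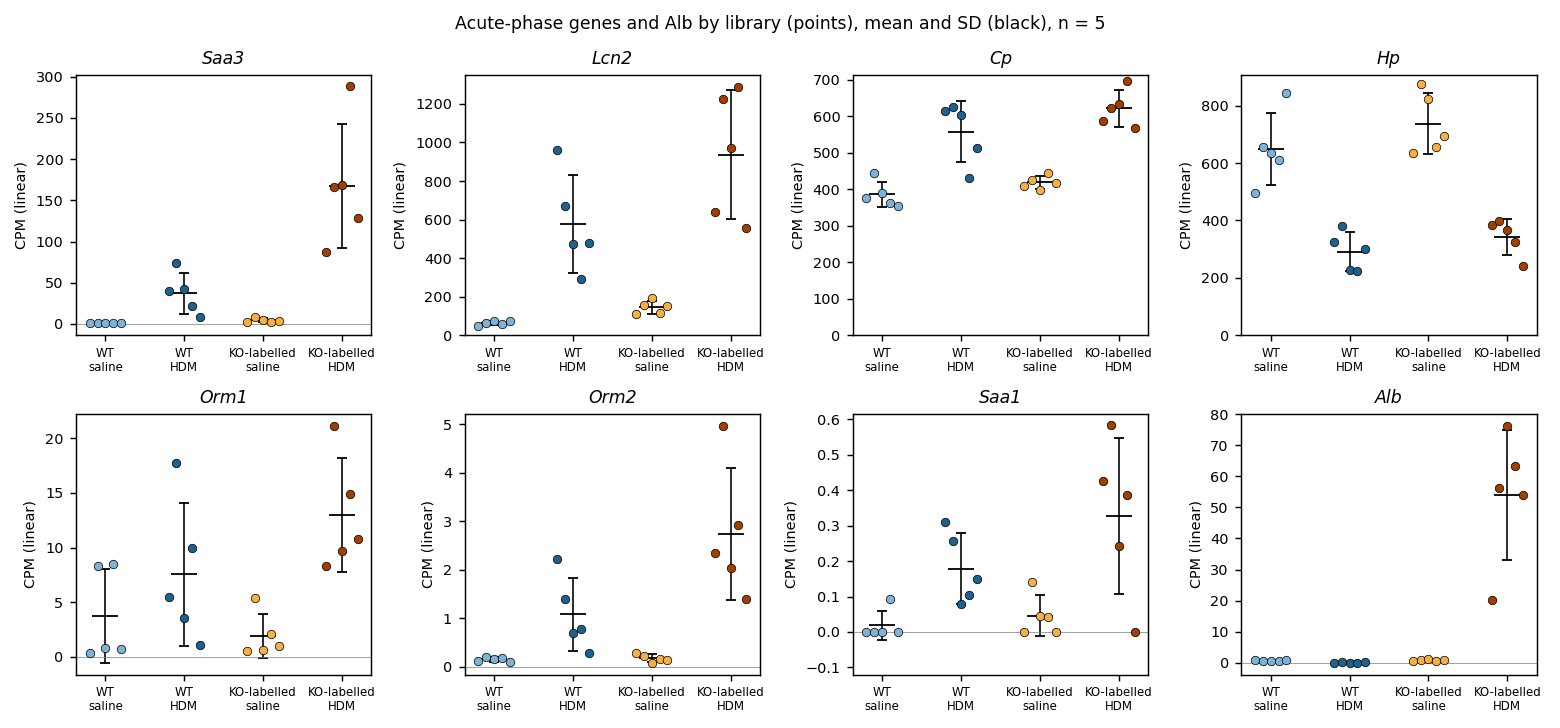
Level of each gene in every library, in CPM on a linear axis with 0 included, with 1 point per library and the mean ± SD of 5 libraries per group; each panel has its own scale. Saa3 and Lcn2 are high in both HDM groups, Hp is low in both, and Alb is high in the KO_HDM libraries.

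Saa3, the serum amyloid A gene that mice express outside the liver, showed the steepest rise of the acute-phase members tested. The WT_saline libraries held 0.952, 1.66, 1.49, 0.736 and 1.08 CPM and the WT_HDM libraries 40.4, 73.7, 42.3, 21.7 and 8.42 CPM. The KO_saline libraries held 2.54, 8.64, 4.31, 2.48 and 3.83 CPM and the KO_HDM libraries 87.2, 166, 169, 288 and 128 CPM. Every HDM library was above every saline library of its genotype, although WT_HDM 5, at 8.42 CPM, lay just under the highest KO_saline library, at 8.64 CPM. Over all genes tested, 5.93% had every HDM library above every saline library in wild type and 22.1% in the libraries labelled knockout. Group means rose from 1.18 ± 0.381 to 37.3 ± 24.7 CPM (SD, n = 5) in wild type and from 4.36 ± 2.52 to 168 ± 75.1 CPM in the libraries labelled knockout. The log2 differences were 4.97 ± 0.57 (SE; 31.3-fold; adjusted p = 7.95e-06, edgeR quasi-likelihood test with Benjamini-Hochberg adjustment over all genes tested, as for every adjusted p below) and 5.27 ± 0.54 (38.5-fold, adjusted p = 5.46e-07). Without the libraries rich in adipose transcripts they were 4.65 and 5.34. In wild type the 5 HDM libraries held 0, 4, 0, 0 and 4 Alb counts. The part of liver transcripts in Saa3 was not tested.

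Saa1 and Saa2, the serum amyloid A forms that circulate after release from the liver, were barely detected. Saa1 had 0, 0, 0, 2 and 0 counts in WT_saline, 5, 4, 1, 2 and 3 in WT_HDM, 0, 3, 1, 1 and 0 in KO_saline and 8, 12, 5, 7 and 0 in KO_HDM. Saa2 had 0, 1, 0, 0 and 1 counts in WT_saline and 1, 1, 0, 2 and 3 in WT_HDM. It had 2, 1, 0, 1 and 1 counts in KO_saline and 4, 0, 2, 3 and 0 in KO_HDM. The groups overlapped for both genes in both genotypes, and at such counts 1 library in 5 decides a mean. For Saa1 the exact two-sided permutation test on CPM gave p = 0.0159 for HDM in wild type and 0.0476 in the libraries labelled knockout, and with no filter on low counts edgeR's adjusted p was 0.0478 and 0.0111. For Saa2 the exact permutation p was 0.0635 and 0.294, with adjusted p of 0.233 and 0.385 without the filter. The design of 5 against 5 allows no exact p under 0.00794, and 8 such tests were made, 4 for each gene. Saa1 shares 14.8% of its 50-base stretches with other transcripts, mostly Saa2, so reads can pass between the pair.

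Lcn2, the siderophore-binding lipocalin of neutrophils, macrophages and epithelium, rose in both genotypes from a level that was already measurable under saline. It was at 46.1, 61.6, 71.7, 57.4 and 75.6 CPM in WT_saline and 963, 669, 475, 292 and 479 CPM in WT_HDM. It was at 109, 156, 194, 114 and 153 CPM in KO_saline and 642, 1228, 971, 1290.2 and 556 CPM in KO_HDM. No HDM library overlapped a saline library of either genotype, and WT_HDM libraries spread from 292 to 963 CPM. Of all genes tested, 5.93% had HDM wholly above saline in wild type and 22.1% in the libraries labelled knockout. The log2 differences were 3.20 ± 0.30 (9.21-fold, adjusted p = 6.90e-07) in wild type and 2.69 ± 0.30 (6.45-fold, adjusted p = 8.07e-07) in the libraries labelled knockout. Macrophage and monocyte markers, 11 genes, moved with Saa3 and Lcn2: their summed level was 772 to 1035 CPM under saline and 5313 to 12073 CPM after HDM in wild type, and 735 to 1135 and 4567 to 7557 CPM with the knockout label. Most of that sum was Chil3, a chitinase-like protein of alveolar macrophages, with group means of 386 ± 88.8 and 6697 ± 2589 CPM in wild type and 415 ± 119.7 and 4725 ± 1251 CPM with the knockout label. Of the 11, 5 rose and 1 fell in wild type and 8 rose and 1 fell with the knockout label, and their part in the rise of Saa3 and Lcn2 was not tested. Of 9 neutrophil markers tested, 1 rose after HDM in wild type (Retnlg) and 3 in the libraries labelled knockout (Mmp8, Ltf, Cxcr2), where 13.6% and 26.2% of all genes rose.

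Ceruloplasmin, the copper-carrying ferroxidase, rose by a smaller amount. The 5 WT_saline libraries held 376, 444, 390.4, 362 and 355 CPM and the WT_HDM libraries 613, 624, 604, 429 and 514 CPM. The KO_saline libraries held 409, 424, 397, 445 and 418 CPM and the KO_HDM libraries 586, 622, 633, 696 and 567 CPM. In wild type WT_HDM 4, at 429 CPM, lay under the highest saline library. In the libraries labelled knockout the groups were apart with HDM higher, as they were for 22.1% of all genes tested. The log2 difference was 0.53 ± 0.10 (1.44-fold, adjusted p = 0.000590) in wild type and 0.57 ± 0.10 (1.48-fold, adjusted p = 9.31e-05) in the libraries labelled knockout. Group means went from 385 ± 35.5 to 557 ± 83.7 CPM (SD, n = 5) in wild type and from 418 ± 18.3 to 621 ± 49.8 CPM in the libraries labelled knockout.

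Haptoglobin, the haemoglobin scavenger, moved the other way. The WT_saline libraries held 496, 657, 636, 609 and 844 CPM and the WT_HDM libraries 326, 380.3, 226, 223 and 301 CPM. The KO_saline libraries held 634, 876, 822, 658 and 695 CPM and the KO_HDM libraries 383, 397, 368, 325 and 243 CPM. All HDM libraries were below all saline libraries of their genotype, as they were for 5.64% of all genes tested in wild type and 21.8% in the libraries labelled knockout. The log2 differences of -1.15 ± 0.17 (adjusted p = 7.50e-05) and -1.10 ± 0.17 (adjusted p = 2.88e-05) correspond to levels 2.23-fold and 2.15-fold lower after HDM. Alb counts rose after HDM in the libraries labelled knockout, and the part of liver transcripts in Hp was not tested. Without the adipose-rich libraries the Hp differences were -1.22 and -1.02. Of 6 mesothelial markers, 1 fell in wild type and 5 in the libraries labelled knockout, and of 6 lung tissue markers 2 and 4 fell. Over all genes tested 16.5% and 25.7% fell, so the mesothelial count in wild type was near that share. The mesothelial sum was 139.7 to 257 CPM under saline and 136 to 187 CPM after HDM in wild type, and 198 to 370 and 91.6 to 152 CPM with the knockout label. Their part in the fall of Hp was not tested.

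The orosomucoids, small lipocalins of plasma, are near-copies of each other. Orm2 rose in both genotypes, and Orm1 rose in the libraries labelled knockout and did not pass the test in wild type; whether the pair differed was not tested. Orm2 was at 0.127, 0.207, 0.160, 0.184 and 0.0942 CPM in WT_saline and 2.22, 1.41, 0.699, 0.776 and 0.297 CPM in WT_HDM. It was at 0.287, 0.235, 0.0880, 0.174 and 0.137 CPM in KO_saline and 2.35, 4.97, 2.04, 2.92 and 1.40 CPM in KO_HDM. The HDM libraries were above the saline libraries in both genotypes, though saline libraries held only a few counts each. The same held for 5.93% of all genes tested in wild type and 22.1% in the libraries labelled knockout. The log2 difference was 2.74 ± 0.51 (6.70-fold, adjusted p = 0.000596) in wild type and 3.86 ± 0.48 (14.5-fold, adjusted p = 2.81e-06) in the libraries labelled knockout.

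Orm1 spread widely inside the saline groups. It was at 0.317, 8.29, 0.851, 8.51 and 0.707 CPM in WT_saline and 5.50, 17.7, 3.57, 9.98 and 1.09 CPM in WT_HDM. It was at 0.527, 5.35, 0.616, 2.09 and 1.00 CPM in KO_saline and 8.27, 21.1, 9.73, 14.9 and 10.8 CPM in KO_HDM. In wild type the highest values of each group, those of replicates 2 and 4, were the adipose-rich libraries, with Adipoq at 85.1 and 103 CPM under saline and 125 and 169 CPM after HDM. The 10 adipocyte markers summed to 153 to 906 CPM under saline and 124 to 1465 CPM after HDM in wild type and to 178 to 410 and 109 to 1312 CPM with the knockout label; their part in Orm1 was not tested. The wild-type difference was 1.01 ± 0.83 (adjusted p = 0.389) with all libraries and 2.36 (adjusted p = 0.0784) without the adipose-rich ones. In the libraries labelled knockout the groups did not overlap, with HDM higher, as for 22.1% of all genes tested. Orm1 rose there by 2.76 ± 0.88 (6.75-fold, adjusted p = 0.0139), or 2.80 (adjusted p = 0.00139) without KO_HDM 5 and the other adipose-rich libraries. The rise was 3.64 without KO_saline 2, the highest of its group. Orm1 and Orm2 share 20.4% of Orm1's 50-base stretches, so RSEM's split between them is uncertain. With Orm1, Orm2 and Orm3 summed, the difference was 1.03 (adjusted p = 0.298) in wild type and 2.66 (adjusted p = 0.00645) in the libraries labelled knockout.

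**Figure D2:**
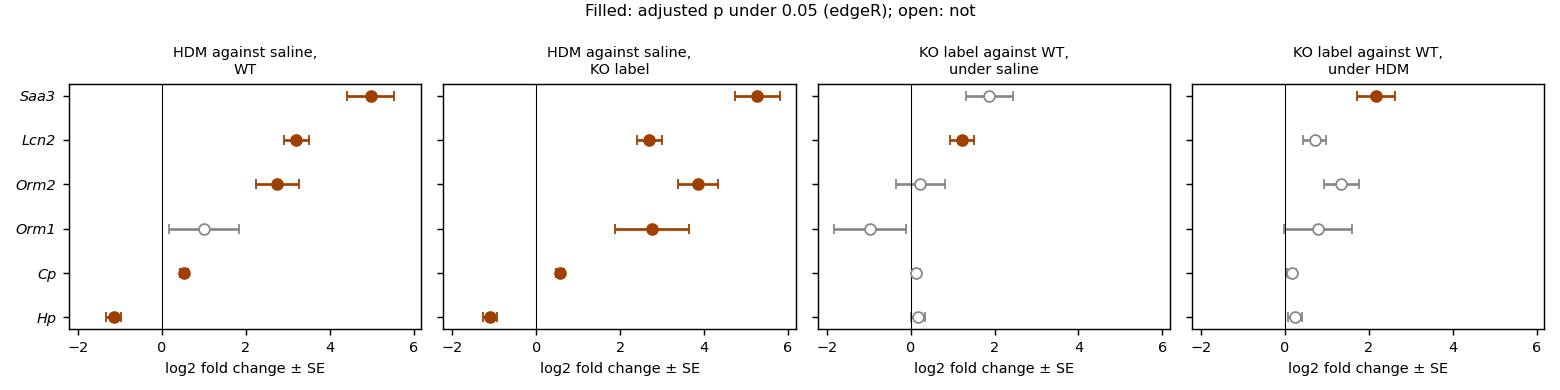
Log2 fold changes ± SE of the 6 acute-phase members tested in 4 comparisons, HDM against saline in each genotype and libraries labelled knockout against wild type under each treatment; filled points have an adjusted p under 0.05. The HDM differences have the same sign in both genotypes for each of the 6, with Hp below 0, and Orm1 in wild type is not filled.

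Albumin separated the KO_HDM libraries from all others. It had 13, 7, 8, 14 and 15 counts in WT_saline, 0, 4, 0, 0 and 4 in WT_HDM, 13, 18, 25, 15 and 15 in KO_saline and 376, 1153, 1570, 1148 and 1000 in KO_HDM. In CPM, KO_HDM was at 54.0 ± 20.9 (SD, n = 5), KO_saline at 0.781 ± 0.198, WT_saline at 0.593 ± 0.194 and WT_HDM at 0.0908 ± 0.126. KO_HDM 1 was the lowest of its group at 20.1 CPM and still far above the other 15 libraries. Since the genes were gathered with this pattern of Alb known, its level is given as a description with no test.

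Other hepatocyte products had the same profile. Transthyretin (Ttr), the thyroid hormone carrier, had 25, 73, 89, 70 and 58 counts in KO_HDM and 1 count in the other 15 libraries together, and the pheromone carrier Mup20 had 72, 277, 203, 309 and 160 counts in KO_HDM, 3 in WT_HDM and 0 in both saline groups. The 22 hepatocyte markers summed to 25.3 to 56.3 CPM under saline and 20.2 to 202 CPM after HDM in wild type, and to 20.9 to 66.9 and 64.5 to 390 CPM with the knockout label. Of 19 tested, 17 were higher after HDM in the libraries labelled knockout (26.2% of all genes were), and 1 was higher and 1 lower in wild type. Several of them, such as Mup7, Mup20, Ttr and Cyp3a11, were at or near 0 in the other groups and entered the test through KO_HDM, so their call was fixed by the filter and the count is a description. The sums also hold Cyp2e1, which reached 188 CPM in an adipose-rich WT_HDM library and 287 CPM in KO_HDM. In WT_saline 5 of the 22 hepatocyte markers were at 0 counts, namely Ttr, Mup7, Mup20, Cyp3a11 and Cyp2c29. The rest of the 22 were detected there, among them Apob, Uox and Gc with 881, 177 and 46 counts over the group. Saa3, Lcn2, Hp, Cp and Orm1 were also detected in WT_saline.

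Inside KO_HDM the acute-phase genes can be set beside Alb as counts per Alb count, a ratio that also moves with Alb in its denominator. Saa3 counts per Alb count were 4.34, 2.96, 2.21, 4.55 and 2.38 in KO_HDM 1 to 5, Lcn2 counts per Alb count were 32.0, 21.9, 12.7, 20.4 and 10.3, and Hp counts per Alb count were 19.1, 7.06, 4.82, 5.13 and 4.50. The ratio was 29.2, 11.1, 8.29, 11.0 and 10.5 for Cp, 0.412, 0.376, 0.127, 0.235 and 0.200 for Orm1, and 0.117, 0.0885, 0.0268, 0.0462 and 0.0260 for Orm2. The library with the least Alb, KO_HDM 1, had the highest ratio for Lcn2, Hp, Cp, Orm1 and Orm2, and KO_HDM 4 had it for Saa3. The part of liver transcripts in these genes was not tested. KO_HDM 1 had the lowest Saa3 of its group and not the lowest Lcn2 or Hp, which were those of KO_HDM 5. With the hepatocyte markers and members left out of the scaling, every call for the 6 acute-phase members stayed on its side of the threshold. That fit changes only the scaling and leaves the counts of the members as they are, so it says nothing about liver transcripts in them.

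**Figure D3:**
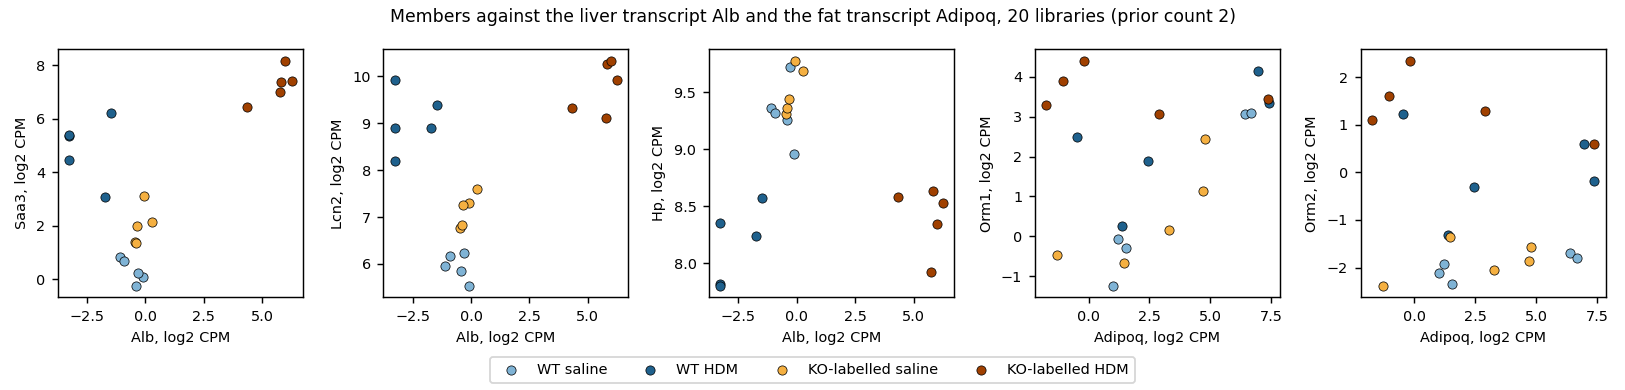
Log2 CPM of Saa3, Lcn2 and Hp against log2 CPM of Alb, and of Orm1 and Orm2 against Adipoq, with 1 point for each of the 20 libraries, coloured by group. WT_HDM libraries have high Saa3 and Lcn2 at the lowest Alb, KO_HDM libraries lie far to the right on Alb, and the libraries with the highest Adipoq within the wild-type groups are those with the highest Orm1.

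Fewer members were called between genotypes than between treatments. Under saline 1 of the 6 tested, Lcn2, was called higher in the libraries labelled knockout, where 0.908% of all genes were called. The difference was 1.22 ± 0.28 (2.33-fold, adjusted p = 0.0459), and all 5 KO_saline libraries, from 109 CPM, lay above the highest WT_saline library, at 75.6 CPM. This call was lost in 13 of 20 fits that each left out 1 library, namely any of WT_saline 1 to 5, WT_HDM 2, 3 or 5, KO_saline 2, 3 or 5, or KO_HDM 2 or 3, with adjusted p of 0.0524 to 0.162 there. It was also lost without the adipose-rich libraries (1.18, adjusted p = 0.110). Saa3 under saline was likewise higher in every KO_saline library than in any WT_saline library, at 2.48 to 8.64 against 0.736 to 1.66 CPM, but its difference of 1.88 ± 0.56 had an adjusted p of 0.154. Among all genes tested, 1.91% had KO_saline above WT_saline without overlap. Cp (0.12 ± 0.10), Hp (0.18 ± 0.17), Orm2 (0.23 ± 0.59) and Orm1 (-0.97 ± 0.86) did not pass, and without the adipose-rich libraries the Orm1 value became 1.58 (adjusted p = 0.356).

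After HDM 1 of the 6, Saa3, was called higher in the libraries labelled knockout, where 6.67% of all genes were called. KO_HDM libraries, from 87.2 CPM, lay above the highest WT_HDM library, at 73.7 CPM, and the difference was 2.17 ± 0.46 (4.51-fold, adjusted p = 0.00799). Of all genes tested, 4.8% had KO_HDM above WT_HDM without overlap. Fitted with only those 10 libraries, the Saa3 difference was 2.15 with an adjusted p of 0.0509, which ends the call. Without the adipose-rich libraries it was 2.57 (adjusted p = 0.0175). Orm2 was 1.35 ± 0.41 higher (adjusted p = 0.0539) and Lcn2 0.70 ± 0.28 higher (adjusted p = 0.145), with overlapping groups. Both passed without WT_HDM 1, which had the highest Lcn2 and Orm2 of its group (adjusted p = 0.0131 for Orm2 and 0.0364 for Lcn2), and Orm2 also passed without KO_HDM 5 (adjusted p = 0.0285). Hp (0.24 ± 0.17), Cp (0.16 ± 0.10) and Orm1 (0.78 ± 0.81) did not pass, and Orm1 was 2.02 (adjusted p = 0.0958) without the adipose-rich libraries. For Saa1 the exact permutation p between genotypes was 0.563 under saline and 0.214 after HDM, and for Saa2 it was 0.365 and 0.706.

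Neutrophil markers differed between the same groups. Of 9 tested, 6 were higher in KO_HDM than in WT_HDM (S100a8, S100a9, Mmp8, Mmp9, Ngp, Csf3r), where 4.79% of all genes were. Only 1 was higher in KO_saline than in WT_saline (Retnlg), where 0.593% of all genes were. The 12 markers summed to 122 to 577 CPM under saline and 194 to 372 CPM after HDM in wild type, and 204 to 330 and 351 to 644 CPM with the knockout label. Much of that sum was lactoferrin (Ltf), which had a median of 44.5 and a highest value of 472 CPM inside WT_saline. S100a8 was at 11.3 ± 3.29 CPM in WT_saline and 36.3 ± 7.36 CPM in KO_saline (adjusted p = 0.105), and S100a9 at 13.2 to 24.4 CPM and 46.8 to 78.6 CPM (adjusted p = 0.0648). Macrophage and monocyte markers were also higher in KO_HDM than in WT_HDM, 6 of 11 tested, beside the same 4.79% of all genes. With a neutrophil score as a covariate the Saa3 difference after HDM was -0.33 (adjusted p = 0.913), the Lcn2 difference under saline was 0.42 (adjusted p = 0.656), and the Orm1 rise in the libraries labelled knockout was 1.79 (adjusted p = 0.153). The score itself differs between the groups, so these fits remove part of any difference between groups along with it. Over all genes tested, calls between genotypes went from 1080 to 15 after HDM and from 147 to 45 under saline. Calls for HDM in the libraries labelled knockout went from 8406 to 6435. The loss was thus not particular to these members, and the part of neutrophils was not tested.

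For the 6 acute-phase members tested, Alb aside, no difference in the HDM response between genotypes was detected. None of the 6 passed the interaction test of edgeR, where 1.24% of all genes did, none had an unadjusted p under 0.05, and DESeq2 and limma voom also called 0. The interaction was 0.30 ± 0.73 for Saa3, -0.51 ± 0.39 for Lcn2, 0.04 ± 0.14 for Cp and 0.05 ± 0.24 for Hp (log2, SE). It was 1.11 ± 0.74 for Orm2 and 1.75 ± 1.18 for Orm1, whose standard errors leave room for a difference of several-fold. The Orm1 interaction lay between 1.18 and 2.60 with a library left out and between 0.44 and 2.06 over the other alternatives.

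Other acute-phase genes were set beside the members from a list of 29, of which 26 were tested. In wild type 13 rose after HDM (13.6% of all genes did) and 1 fell (16.5%), namely Itih3, a hyaluronan-binding inhibitor chain, with a list median of 0.87 (0.67 with genes at 0 in a group set to their bound) against -0.02 over all genes. In the libraries labelled knockout 18 rose (26.2% of all genes did) and 1 fell (25.7%), namely Trf, the iron carrier transferrin, with a median of 1.67 against 0.02. Among the 18, Fga, Fgb and Ttr had few or 0 counts outside KO_HDM and entered the test through it. Serpina1b, at a median of 0 CPM in both saline groups, also entered through KO_HDM. Saa4, among the 13 and the 18, had 10 counts over WT_saline and 14 over KO_saline and entered through the HDM groups. The counts and medians in both genotypes are therefore a description, and the calls of these genes carry no weight as support. Saa4, the constitutive serum amyloid A, rose by 3.76 ± 0.53 and 3.80 ± 0.50, from about 0.101 to 1.49 CPM and from 0.129 to 1.86 CPM. The pentraxin Ptx3, a soluble pattern receptor made outside the liver, rose by 2.25 ± 0.34 and 2.1 ± 0.33. Complement component C3 rose by 1.29 ± 0.20 and 1.14 ± 0.19, the antiprotease Serpina3n by 1.12 ± 0.19 and 0.79 ± 0.19, the interleukin 1 antagonist Il1rn by 1.93 ± 0.29 and 2.15 ± 0.29, and the endotoxin co-receptor Cd14 by 1.12 ± 0.18 and 1.52 ± 0.18. Orm3, the third orosomucoid, did not pass in either (-0.06 ± 0.50 and 0.29 ± 0.50).

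Several plasma protein genes of the list moved with Alb. The fibrinogen chains Fga (3.70 ± 0.55) and Fgg (1.86 ± 0.58), the haem carrier Hpx (1.23 ± 0.32) and prothrombin, F2 (2.36 ± 0.30), rose after HDM in the libraries labelled knockout and were at -1.48 ± 0.69, -1.06 ± 0.63, -0.72 ± 0.35 and 0.67 ± 0.31 in wild type, none of which passed. The third fibrinogen chain, Fgb, had 229 counts in KO_HDM and 0 in the other groups. Fga and Hpx passed the interaction test (adjusted p = 0.00809 and 0.0439), and Fgg and F2 did not (0.101 and 0.0607). Fga had 35, 10 and 25 counts over WT_saline, WT_HDM and KO_saline and 292 over KO_HDM. It entered the test through KO_HDM, so its calls are a description and carry no weight as support. Of the 26, 7 were higher in KO_HDM than in WT_HDM, where 4.79% of all genes tested were. Fgb and Ttr, at 0 and 1 counts over the other groups, entered the test through KO_HDM as Fga did, so the count is a description. The 7 were Hpx, Fga, Fgb, Fgg, F2, Ttr and the complement factor Cfb (1.08 ± 0.29, adjusted p = 0.0282). The summed hepatocyte markers given above moved with these genes, and the part of liver transcripts in them was not tested.

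**Figure D4:**
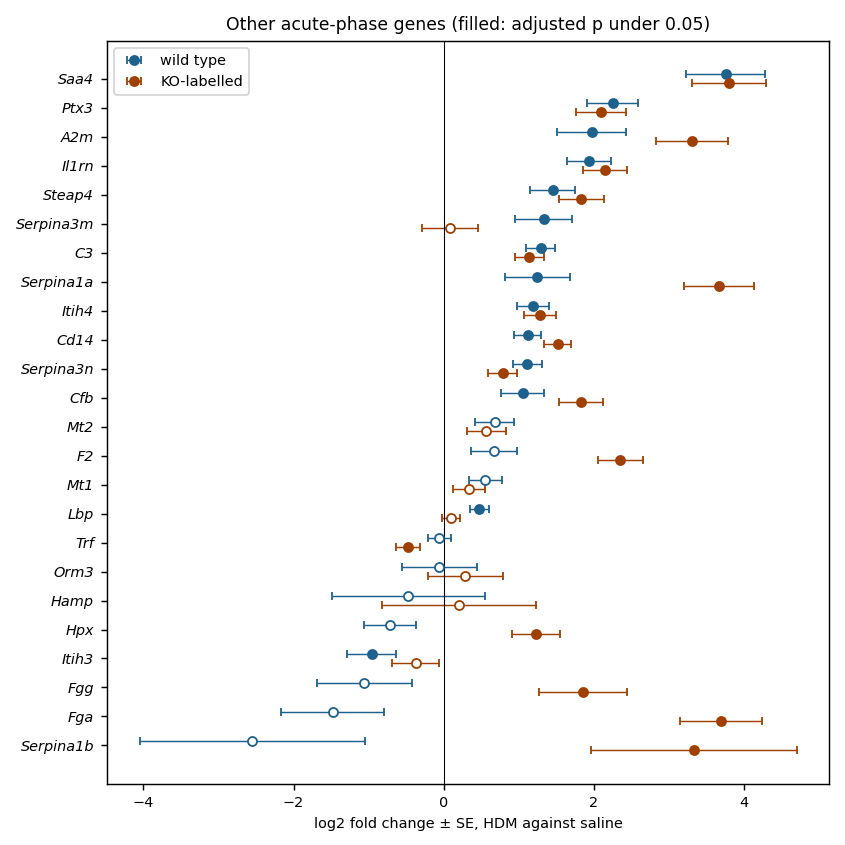
Log2 fold change ± SE after HDM for 24 other acute-phase genes in wild type and in the libraries labelled knockout; Ttr and Fgb are left out because a saline group had 0 counts. Saa4, Ptx3, Il1rn and C3 lie right of 0 in both genotypes, and Fga, Fgg and Hpx lie left of 0 in wild type and right of 0 in the libraries labelled knockout.

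Of 9 tested cytokines that induce acute-phase genes, 3 rose after HDM in wild type and 4 in the libraries labelled knockout, where 13.6% and 26.2% of all genes rose. Il6, the chief inducer in liver, rose by 1.43 ± 0.49 (adjusted p = 0.0319) and 1.32 ± 0.47 (adjusted p = 0.0230), Il1a by 0.81 ± 0.21 and 0.96 ± 0.20, and oncostatin M (Osm), a cytokine of the same family as Il6, by 0.85 ± 0.31 and 1.77 ± 0.31. Il6 had few counts, 3 to 9 a library in each saline group, 5 to 17 in WT_HDM and 6 to 20 in KO_HDM. Its HDM and saline libraries overlapped in both genotypes. Il6 entered the test through the HDM groups, so its calls and its place in the counts above are a description and carry no weight as support. Tnf rose in the libraries labelled knockout (1.66 ± 0.48) and was at 0.87 ± 0.48 in wild type. None of the 9 was called between genotypes under saline, and Clcf1 was lower in KO_HDM than in WT_HDM (-1.04 ± 0.24).

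Of 10 tested receptors for these cytokines, 1 rose and 4 fell after HDM in wild type, where 13.6% and 16.5% of all genes did, and 2 rose and 6 fell in the libraries labelled knockout, where 26.2% and 25.7% did. Il6ra, which binds interleukin 6, changed by -0.53 ± 0.10 and -0.49 ± 0.10 on the log2 scale, and its signalling partner Il6st changed by -0.26 ± 0.09 and -0.48 ± 0.09. Lifr changed by -0.74 ± 0.16 and -0.58 ± 0.16, while the interleukin 1 receptor Il1r1 rose by 0.36 ± 0.11 and 0.65 ± 0.11. Downstream, the feedback inhibitor Socs3, a STAT3 target, rose by 0.46 ± 0.15 and 0.53 ± 0.15, and Nfkbiz, an NF-kappa B cofactor needed for Lcn2 induction, rose by 0.76 ± 0.12 and 0.91 ± 0.12. Of 11 transcription factors and feedback genes tested, 2 rose and 2 fell in wild type, where 13.6% and 16.5% of all genes did. In the libraries labelled knockout 2 rose and 1 fell, where 26.2% and 25.7% did. These counts are near or under the shares of all genes. The NF-kappa B subunit Rela fell in both (-0.37 ± 0.11 and -0.53 ± 0.11), and the glucocorticoid receptor Nr3c1 fell in wild type (-0.32 ± 0.10). Stat3 (-0.12 ± 0.09 and -0.18 ± 0.09), Cebpb (0.31 ± 0.14 and 0.32 ± 0.14) and Cebpd (-0.24 ± 0.22 and -0.35 ± 0.22), did not pass in either genotype.

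Among 16 receptors and partners of the members, 2 rose and 3 fell after HDM in wild type, and 3 rose and 4 fell in the libraries labelled knockout, shares near or under those of all genes (13.6% and 16.5%, and 26.2% and 25.7%). The toll-like receptors Tlr2 (0.68 ± 0.17 and 1.59 ± 0.17) and Tlr4 (0.69 ± 0.15 and 1.35 ± 0.15), which respond to serum amyloid A, rose in both. The formyl peptide receptor Fpr2, a receptor for serum amyloid A, was at 0.66 ± 0.30 in wild type and rose by 2.98 ± 0.31 in the libraries labelled knockout, and it passed the interaction test (2.31 ± 0.42, adjusted p = 0.0108). Fpr1, Fpr2 and Tlr2 were higher in KO_HDM than in WT_HDM by 1.49 ± 0.41, 2.08 ± 0.30 and 0.96 ± 0.17. The neutrophil markers given above moved with these receptors, and their part was not tested. Slc22a17, the lipocalin 2 receptor, was lower there (-0.57 ± 0.15). The copper transporter Atp7b, which loads ceruloplasmin with copper, fell in both genotypes (-0.89 ± 0.19 and -1.67 ± 0.20), as did Heph, the membrane ferroxidase related to Cp (-0.44 ± 0.12 and -0.47 ± 0.12).

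Genes whose log2 CPM ran most like a member over the 20 libraries were picked by the highest Pearson r, with the r of deviations from group means beside it; both are descriptions over libraries that share treatment and tissue makeup. For Lcn2 these were Chil1 (0.980, 0.900 within groups), Cd63 (0.978, 0.864) and Ccl6 (0.976, 0.637). For Saa3 they were Rnf149 (0.971, 0.728 within groups), Cd300lf (0.968, 0.659) and Lilrb4 (0.962, 0.565). For Cp they were Cd14 (0.960, 0.788 within groups), Ccr1 (0.953, 0.717) and Olfm1 (0.952, 0.709), and for Hp they included Exoc7 (0.957, 0.791) and Cckar (0.953, 0.771). For Orm1 they were Pgam1 (0.898, 0.810 within groups), Sephs2 (0.897, 0.833) and Hk2 (0.891, 0.836). For Alb they were the plasma protein genes Gc (0.954, 0.166 within groups) and Mug1 (0.947, 0.597) and the urea cycle enzyme Cps1 (0.946, 0.345), so its likeness lay between groups more than within them. None of the genes named here as nearest to Saa3, Lcn2, Cp or Hp was a gene of the hepatocyte list. Most hepatocyte markers were high in KO_HDM alone, while these members also changed in WT_HDM. The absence therefore says nothing about liver transcripts in these members, which was not tested.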

How the data were processed

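Whole-lung RNA was sequenced in 20 libraries, from oligo-dT selected RNA with the strand-keeping dUTP method, per the labels' protocols. The values the authors deposited are unnormalized expected counts of genes; per the submitters' processing notes these come from Bowtie2 2.1.0 and RSEM 1.2.15 with build hg38, which is human although the symbols are mouse, so the build used is not known. RSEM divides reads that fit several genes, which affects near-copies such as Saa1 with Saa2 and Orm1 with Orm2.

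Expected counts were rounded, filtered with filterByExpr by group (16193 of 24054 genes kept), scaled by TMM, and modelled with edgeR 4.0.16 under R 4.3.3 (robust quasi-likelihood F test, 1 mean per group, 16 residual degrees of freedom). The 5 comparisons were HDM against saline in each genotype, the genotype labels against each other within each treatment, and the interaction term. Adjustment was by Benjamini-Hochberg over all genes tested, called means an adjusted p under 0.05, and SE is the log2 difference over the square root of F. Named genes are the 9 members, genes of the fixed lists and the 3 genes most like a member, of which 1 for Hp is not reported here. Members and lists were chosen with earlier results of these data known. Shared 50-base stretches were counted in GENCODE M21 transcripts (GRCm38). Scripts were tested on simulated data. Alternatives were DESeq2 1.42.0, limma 3.58.1 voom, other filters and scaling, covariates, a replicate block and leaving out libraries; summing the Orm genes was added after the data were seen. With these totals, 1 CPM is over 10 counts.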

Additional observations from a re-analysis of the deposited data

Results flagged for a closer look

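In WT_saline, replicate 4 stood apart for Saa1, at 0.0920 CPM (2 counts) where the other 4 libraries of the group had 0 counts. Its gap to the others, over the range of the group, was above Dixon's critical value of 0.71 for 5 samples. Chance marks about 1 in 20 groups in this way, 36 groups were examined, and 2 counts are under the floor of 3 counts.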

How the results depend on the processing

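The HDM results kept their direction and their side of the threshold for Saa3, Lcn2, Cp, Hp and Orm2 in both genotypes under every alternative that gave them a value and in all 20 fits that each left out 1 library. Over the 6 acute-phase members tested and the 5 comparisons 986 of 1037 alternative values stayed on their side with their direction, 24 reversed, 19 lost and 8 gained a call. Orm1 in the libraries labelled knockout lost its call with the neutrophil covariate, at 1.79 (adjusted p = 0.153), and was 3.64 without KO_saline replicate 2. Under saline 1 member was called between genotypes, against 2 with DESeq2 and 0 with the replicate block, the hepatocyte covariate, the neutrophil covariate or without the adipose-rich libraries, and 0 to 1 with a library left out. After HDM 1 was called, against 2 with DESeq2, limma voom, the replicate block or the adipose covariate, 0 with the neutrophil covariate or with only the groups compared, and 1 to 3 with a library left out. The hepatocyte and adipose covariates were centred within each group, so they remove no difference between groups: Alb between the HDM groups was 8.98 with the hepatocyte covariate. The cause of these changes was not tested.

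With the neutrophil covariate the genotype differences reversed under saline for Hp (-0.11), Orm2 (-0.72) and Cp (-0.081). They reversed after HDM for Saa3 (-0.33), Hp (-0.24), Lcn2 (-0.57), Orm1 (-1.46), Orm2 (-0.18) and Cp (-0.18), and the interaction reversed for Saa3 (-0.50), Hp (-0.13) and Cp (-0.10). Without the adipose-rich libraries Orm1 under saline (1.58) and the Cp interaction (-0.030) reversed. With a library left out the interaction ranged from -0.033 to 0.71 for Saa3, -0.067 to 0.18 for Hp and -0.079 to 0.094 for Cp. Pairing of same-numbered libraries of different groups was mixed. Their deviations correlated from -0.457 to 0.506, 17 of 30 pairs over 0.1, and 7 of 20 libraries correlated best with their own number. Pairs of WT_saline with WT_HDM ran from 0.00396 to 0.506, and the lowest values were those of pairs with KO_HDM. Adipoq was highest in replicates 2 and 4 within WT_saline, WT_HDM and KO_saline alike. With the replicate block Orm2 after HDM passed (1.44, adjusted p = 0.00754) and Lcn2 under saline did not (1.2, adjusted p = 0.0792). DESeq2 also called Saa3 under saline (adjusted p = 0.0149). Depth limits Saa1 and Saa2, at 0 to 12 counts a library.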
